A study of Mus musculus with 16 samples.

Results

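The expression of 10 nuclear receptor genes was followed in sorted mouse retinal microglia: the liver X receptors Nr1h2 and Nr1h3, their partners Rxra and Rxrb, the lipid receptors Pparg and Ppard, the retinoic acid receptor Rara, the glucocorticoid receptor Nr3c1, the inducible orphan receptor Nr4a1 and the clock repressor Nr1d2. They were taken by name from the 54532 genes of the table. These receptors and the gene lists used below were chosen with earlier results of these data known, so the shares that passed are a description only. The low-count filter kept 8 of the 10 genes among its 12496 tested genes. Pparg and Rara were too low to be tested. Across the whole superfamily 49 nuclear receptor genes were in the table and 22 were tested.

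Retinas with oxygen-induced retinopathy (OIR), a model in which pups spend a period in high oxygen before going back to room air, were compared with retinas without it (nonOIR). Both groups were Cx3cr1CreERT2:Rosa26-tdTomato mice at postnatal day 17, and both had received 5 µl of tamoxifen at 21 mg/ml under the skin at postnatal day 1. The Cx3cr1 promoter that drives the recombinase is active in microglia and also in other macrophages and in monocytes, and the sort took CD45low CD11b+ Tom+ Ly6C- Ly6G- cells. There were 8 libraries in each group. Whether each library came from its own animal is not stated in the labels, and p-values therefore cover the spread over these samples only, part of which may be technical.

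Nuclear receptors are transcription factors whose activity is set by small lipid-soluble ligands. LXRs bind oxysterols, PPARs bind fatty acids, and both bind DNA as pairs with a retinoid X receptor, switching on genes of cholesterol export and of fat handling. The glucocorticoid receptor waits in the cytoplasm on heat-shock chaperones until its hormone arrives, and in microglia and other macrophages it restrains inflammatory genes. Receptor transcript level and receptor activity are separate quantities, and only transcripts were measured here.

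Library totals ran from 13591651 to 30001463 counts. The sequencing lane code in the labels placed 5 libraries of each group in lane 1 and 3 in lane 2, and nothing states whether it also marks litters or rounds of preparation. In a component analysis of 500 highly variable genes, the groups did not overlap on the first component (48.2% of the variance). OIR replicate 1 stood apart on the third (7.25%). Over all tested genes 1368 changed (10.9%), 798 of them higher and 570 lower in OIR. Scaling by plain library size gave 1020 higher and 364 lower.

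Transcripts of 2 of the 8 tested receptors fell in OIR, Nr3c1 and Rxrb, and none rose. That is 25.0% of 8 genes, a share that rests on few genes, where 10.9% of all tested genes changed in either direction and 4.56% fell. No tested receptor had groups that did not overlap, against 2.02% of tested genes. The median log2 fold change of the 8 receptors was -0.05, with 4 above and 4 below 0, beside a median of -0.03 over all tested genes. Under library-size scaling those medians were 0.02 and 0.04. Adjusted p-values in the text are from edgeR's quasi-likelihood test, adjusted by Benjamini-Hochberg over all tested genes, at a threshold of 0.05. In bulk RNA, fewer cells that carry a transcript and less of it per cell cannot be told apart.

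Levels are given as CPM (reads of the gene relative to the TMM-scaled total of the tested genes), and levels of different genes are compared only per kilobase of exon.

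**Figure D1:**
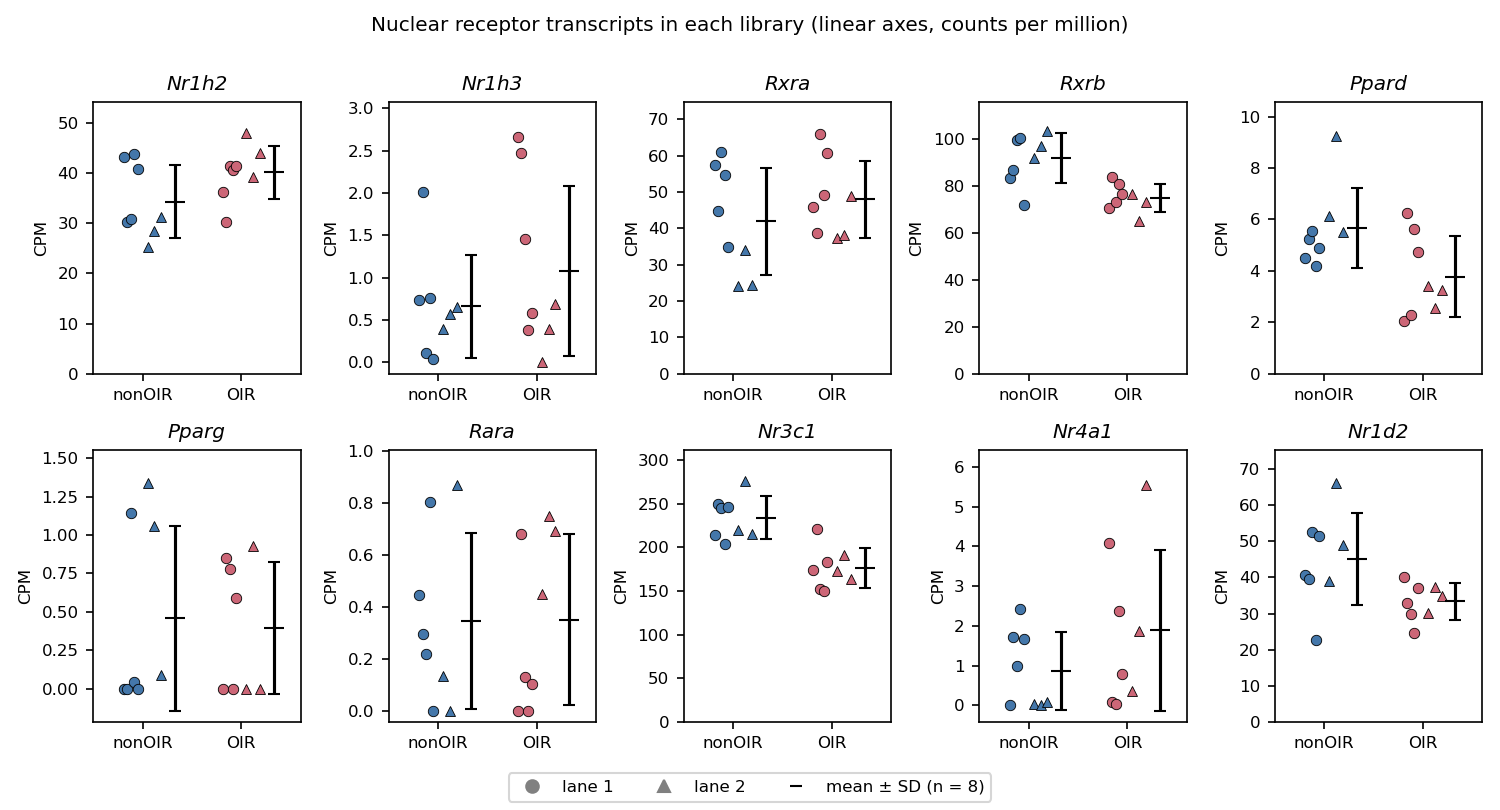
Level of each of the 10 receptor genes in every library, in CPM, by group; points are libraries (circles lane 1, triangles lane 2), and bars show the mean ± SD over 8 libraries. Nr3c1 ran from 204 to 277 CPM in nonOIR and from 150 to 221 in OIR, and the ranges of the groups overlapped for every receptor.

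Per kilobase, the receptors fell into a high and a low set. In nonOIR, Nr3c1 stood highest at 30.5 ± 3.18 CPM per kilobase (SD, n = 8), followed by Rxrb at 23.1 ± 2.66. Nr1h2 at 10.2 ± 2.16, Nr1d2 at 8.35 ± 2.36 and Rxra at 7.67 ± 2.69 came next, and these 3 neighbours differed by less than their spread. The low set held Ppard at 0.754 ± 0.209, Nr1h3 at 0.263 ± 0.243, Nr4a1 at 0.247 ± 0.276, Pparg at 0.155 ± 0.204 and Rara at 0.0792 ± 0.0774, of which the last 4 overlapped one another.

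The order in OIR was similar, with Nr3c1 at 22.9 ± 3.01 CPM per kilobase (SD, n = 8), Rxrb at 18.9 ± 1.49, Nr1h2 at 11.9 ± 1.57, Rxra at 8.79 ± 1.94 and Nr1d2 at 6.17 ± 0.930. Nr4a1 stood at 0.539 ± 0.577, Ppard at 0.503 ± 0.210 and Nr1h3 at 0.430 ± 0.400, with no separation beyond their spread. The LXR transcript with the higher mean was Nr1h2 in both groups, and the PPAR transcript with the higher mean was Ppard.

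**Figure D2:**
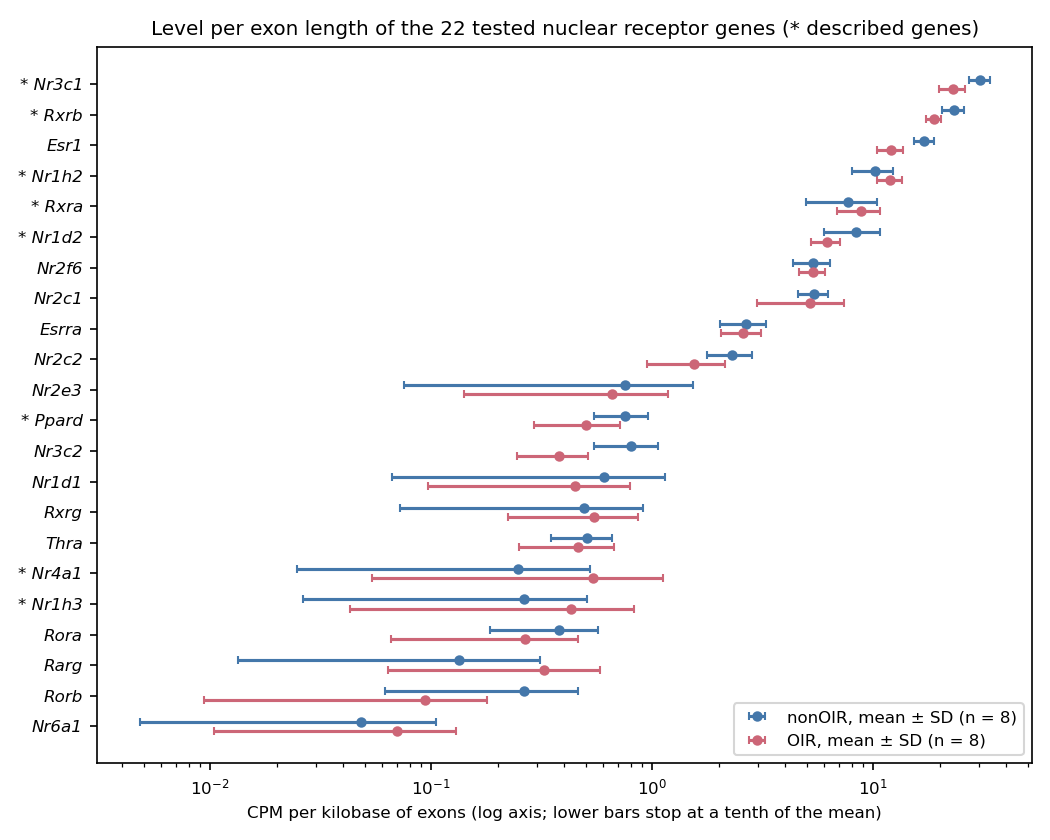
Mean level of the 22 tested nuclear receptor genes in CPM per kilobase of exon, on a log axis, for nonOIR and OIR; bars show the SD over 8 libraries, and lower bars stop at 0.1 of the mean. Nr3c1 and Rxrb lead the members in both groups, at 30.5 and 23.1 CPM per kilobase in nonOIR.

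The LXR genes did not pass the test. Nr1h2 (LXRβ, the widely expressed LXR; ENSMUSG00000060601, chromosome 7 from 44549616 to 44553951 on the minus strand, mm10) stood at 25.2 CPM in the lowest nonOIR library, 31.0 at the median and 43.8 in the highest. In OIR its lowest, median and highest values were 30.1, 40.9 and 48.0 CPM. The ranges overlapped over most of their length. The group means were 34.2 ± 7.24 CPM in nonOIR and 40.1 ± 5.28 in OIR (SD, n = 8), a log2 difference of 0.23 ± 0.13 (SE) with a 95% interval of -0.0464 to 0.503 (edgeR adjusted p = 0.297). The lanes gave different values for Nr1h2. The log2 difference was 0.01 among lane 1 libraries (edgeR adjusted p = 0.982) and 0.67 among lane 2 libraries (edgeR adjusted p = 0.0243, where 15.4% of tested genes passed). Tested directly, the lanes differed by 0.62 ± 0.22 (SE) on the log2 scale, which did not pass (edgeR adjusted p = 0.213).

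Nr1h3 (LXRα, the more macrophage- and liver-restricted LXR; ENSMUSG00000002108, chromosome 2 from 91184061 to 91202834 on the minus strand) was close to the detection floor. All 8 nonOIR libraries together held 116 reads of it and all 8 OIR libraries 224. Its levels were 0.0388, 0.611 and 2.02 CPM in nonOIR (lowest, median, highest) and 0, 0.640 and 2.66 in OIR, so the OIR range enclosed the nonOIR range. The nonOIR maximum was a single library, replicate 2, and the next was 0.761. The log2 difference was 0.71 ± 0.75 (SE), with a 95% interval from -0.871 to 2.28 (edgeR adjusted p = 0.621). It was 1.04 in lane 1 and -0.51 in lane 2. In the gene annotation 34 exon bases of Nr1h3 are shared with Gm13783 on the same strand.

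Of the retinoid X receptors, obligate partners of both LXRs and PPARs, Rxrb fell and Rxra did not pass. Rxrb (RXRβ; ENSMUSG00000039656, chromosome 17 from 34031812 to 34038399 on the plus strand) stood at 71.9, 94.5 and 103 CPM in nonOIR and at 65.1, 74.9 and 84.1 in OIR (lowest, median, highest). Of the nonOIR libraries 7 of 8 lay above the OIR median, and the exception, replicate 5, was the lowest. Rxrb fell from 91.9 ± 10.6 to 75.1 ± 5.91 CPM (SD, n = 8), which is 0.817 of the nonOIR level, a log2 change of -0.29 ± 0.09 (SE) with a 95% interval of -0.471 to -0.112 (edgeR adjusted p = 0.0347). In the authors' deposited table its log2 fold change is -0.28 with an adjusted p of 0.00829.

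The call for Rxrb was a narrow one. It was lost on leaving out any of 11 of the 16 libraries (OIR replicates 1, 3, 5, 6, 7 and 8 and nonOIR replicates 3, 4, 6, 7 and 8), with edgeR adjusted p from 0.0515 to 0.0826, and with library-size scaling (edgeR adjusted p = 0.120) or without the low-count filter (edgeR adjusted p = 0.117). The log2 difference of Rxrb was -0.19 in lane 1 (edgeR adjusted p = 0.396) and -0.40 in lane 2 (edgeR adjusted p = 0.0559), lower in OIR in both.

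Rxra (RXRα; ENSMUSG00000015846, chromosome 2 from 27676440 to 27762957 on the plus strand) ranged over 24.1, 39.7 and 61.1 CPM in nonOIR and 37.3, 47.3 and 65.8 in OIR (lowest, median, highest), with wide overlap. The log2 difference was 0.20 ± 0.20 (SE), 95% interval -0.217 to 0.613 (edgeR adjusted p = 0.591), from means of 41.9 ± 14.7 and 48.0 ± 10.6 CPM (SD, n = 8). Within lanes it was 0.05 in lane 1 (edgeR adjusted p = 0.937) and 0.63 in lane 2 (edgeR adjusted p = 0.0629). A direct comparison of Rxra with Rxrb was not made, so their opposite signs are given as values.

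PPAR transcripts were few. Ppard (PPARδ, a receptor for fatty acids in most tissues; ENSMUSG00000002250, chromosome 17 from 28232700 to 28301474 on the plus strand) stood at 4.21, 5.39 and 9.24 CPM in nonOIR and 2.07, 3.35 and 6.26 in OIR (lowest, median, highest). All 8 nonOIR libraries lay above the OIR median, yet the ranges overlapped and the nonOIR maximum was again a single library, replicate 7, with the next at 6.15. The log2 difference was -0.59 ± 0.27 (SE), 95% interval -1.15 to -0.0253, and did not pass over all tested genes (edgeR adjusted p = 0.179). It was -0.21 in lane 1 (edgeR adjusted p = 0.845) and -1.13 in lane 2 (edgeR adjusted p = 0.0718).

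Pparg (PPARγ, known for fat cells and for lipid-laden macrophages; ENSMUSG00000000440, chromosome 6 from 115360951 to 115490399 on the plus strand) had 80 reads over the 8 nonOIR libraries and 82 over the 8 OIR libraries. It was at 0 in 3 nonOIR and 4 OIR libraries, where the limit that 3 reads set lay between 0.0976 and 0.222 CPM over all libraries. Its highest levels were 1.34 CPM in nonOIR and 0.929 in OIR. Rara (RARα; ENSMUSG00000037992, chromosome 11 from 98927818 to 98974942 on the plus strand) had 58 and 68 reads, was at 0 in 2 libraries of each group, and reached 0.869 CPM in nonOIR and 0.752 in OIR. Fitted without the filter, neither passed (edgeR adjusted p = 0.960 for Pparg and 0.986 for Rara).

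Nr3c1 (the glucocorticoid receptor; ENSMUSG00000024431) had the lowest adjusted p among the members. Its nonOIR libraries stood at 204 CPM at the lowest, 233 at the median and 277 at the highest. Its OIR libraries stood at 150, 174 and 221 CPM. All 8 nonOIR libraries lay above the OIR median, and only OIR replicate 2, at 221 CPM, reached into the nonOIR range. Nr3c1 fell from 234 ± 24.4 to 176 ± 23.1 CPM (SD, n = 8), which is 0.753 of the nonOIR level, a log2 change of -0.41 ± 0.09 (SE) with a 95% interval of -0.595 to -0.225 (edgeR adjusted p = 0.00601).

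The fall of Nr3c1 passed in all 16 fits that each left out 1 library, with edgeR adjusted p of 0.0167 at most. It was of like size in the lanes, -0.39 in lane 1 (edgeR adjusted p = 0.0732) and -0.38 in lane 2 (edgeR adjusted p = 0.0620), although neither lane passed alone; in lane 1 3.33% of tested genes passed, and no receptor did. The authors' deposited table gives a log2 fold change of -0.39 and an adjusted p of 0.000366. The tested genes whose levels followed Nr3c1 most closely within groups were Cul2 (r = 0.838) and Glud1 (r = 0.756), and for Rxrb they were Atp2b2 (r = 0.784) and Col27a1 (r = 0.769). These are Pearson correlations of log2(CPM + 1) over 16 libraries after subtracting group means; the values share library, depth and lane, and are a description only.

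Nr4a1 (Nur77, an immediate early gene that needs no known hormone; ENSMUSG00000023034, chromosome 15 from 101254269 to 101274795 on the plus strand) was low and uneven between libraries. Its levels were 0, 0.534 and 2.42 CPM in nonOIR and 0.0325, 1.33 and 5.55 in OIR (lowest, median, highest), from 159 and 385 reads. The log2 difference of 1.11 ± 1.00 (SE) had a 95% interval from -0.972 to 3.20 (edgeR adjusted p = 0.535). In lane 2 the 3 nonOIR libraries held 1, 0 and 2 reads and the 3 OIR libraries 8, 42 and 144. In lane 1 the nonOIR libraries held 0 to 54 reads and the OIR libraries 1 to 103. The difference between lanes did not pass (edgeR adjusted p = 0.209).

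The 250 bases before the RefSeq start of Nr4a1, which lies inside the gene's annotated span, are shown because they carry 4 copies of TGACG, the core of the cAMP response element bound by CREB, on the opposite strand as CGTCA (capitals), starting 233, 213, 69 and 40 bases before that start. They cover chr15:101266596-101266845 on the plus strand of mm10, from RefSeq.
Nr4a1: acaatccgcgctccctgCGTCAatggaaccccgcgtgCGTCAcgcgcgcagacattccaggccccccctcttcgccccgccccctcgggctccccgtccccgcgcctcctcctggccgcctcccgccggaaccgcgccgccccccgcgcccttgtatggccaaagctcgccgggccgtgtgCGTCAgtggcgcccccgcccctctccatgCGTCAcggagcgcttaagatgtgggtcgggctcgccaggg
At least 1 TGACG, on either strand, was found in 20.8% of 32851 promoter windows of 300 bases (250 before to 50 after the start). The 9 members with a window had 17 windows, of which 6 held TGACG, in Nr1h2, Nr4a1, Ppard, Rara and Rxrb. The hexamer AGGTCA, the unit to which many nuclear receptors bind, was in 16.3% of all windows. It was in 5 of the 17 member windows, in Nr1d2, Pparg, Rara and Rxra. A match is a description of the letters and not a measured binding site.

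Nr1d2 (REV-ERBβ, a haem-binding repressor of the circadian clock; ENSMUSG00000021775, chromosome 14 from 18204054 to 18239127 on the minus strand) was spread widely in nonOIR, at 22.7, 44.8 and 66.2 CPM (lowest, median, highest), and less in OIR, at 24.6, 33.9 and 40.0. Of the nonOIR libraries 7 of 8 lay above the OIR median, and the exception, replicate 4, was the lowest of all 16. The log2 difference was -0.44 ± 0.17 (SE), 95% interval -0.784 to -0.0891, and did not pass (edgeR adjusted p = 0.101). Without nonOIR replicate 4 it was -0.53 and passed (edgeR adjusted p = 0.0184). It was -0.32 in lane 1 (edgeR adjusted p = 0.491) and -0.55 in lane 2 (edgeR adjusted p = 0.109).

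**Figure D3:**
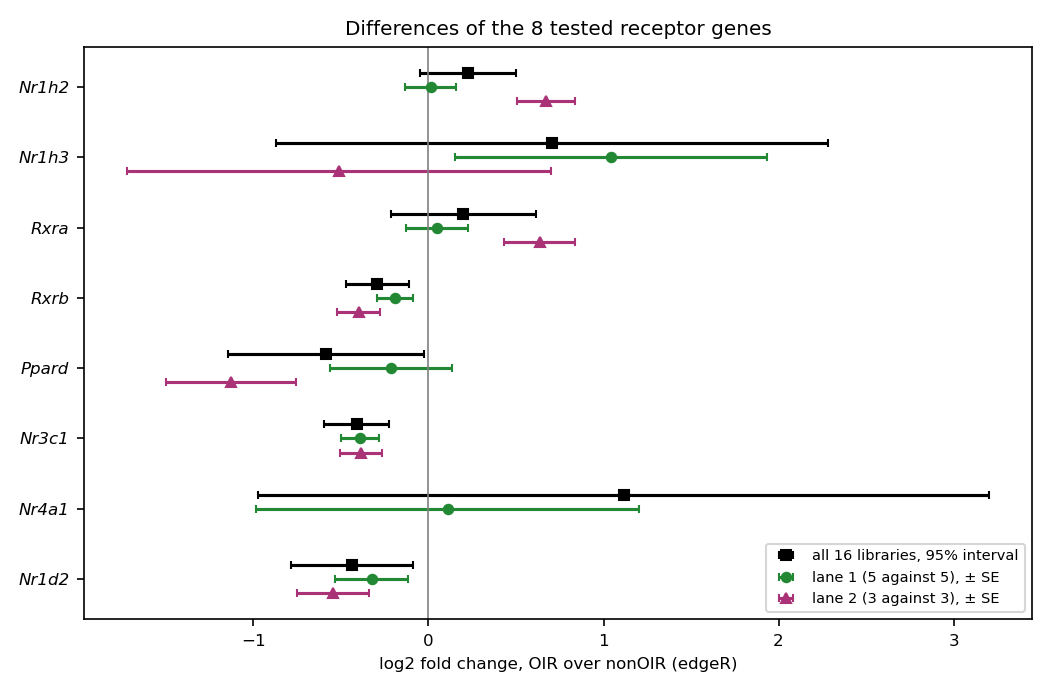
Log2 fold change of each tested receptor gene, OIR over nonOIR, for all 16 libraries with its 95% interval and for each lane alone with its SE; Nr4a1 was not tested in lane 2 alone. The all-library intervals of Nr3c1 (-0.595 to -0.225) and Rxrb (-0.471 to -0.112) lie below 0 and pass after adjustment, while those of Nr1h3 and Nr4a1 are the widest.

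Among the 8 tested receptors none passed the test of a difference between lanes (edgeR's quasi-likelihood interaction test, where 0.496% of tested genes passed), and 2 had an unadjusted p under 0.05, Nr1h2 and Nr4a1. With lane as a covariate the receptors that fell were again Nr3c1 and Rxrb, and 17.3% of tested genes passed.

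Across all nuclear receptors, 4 of 22 tested genes fell and none rose by edgeR's quasi-likelihood test, with a median log2 fold change of -0.17. Of all tested genes 4.56% fell and 6.39% rose. An unadjusted p under 0.05 was found for 7 receptors, and DESeq2 and limma-voom each called 4. In lane 1 alone no receptor passed, and in lane 2 alone 2 of 23 rose and 2 fell, where 3.33% and 15.4% of all tested genes passed. With library-size scaling 3 fell, and the median was -0.09. Besides Nr3c1 and Rxrb, the receptors that fell over all libraries were Esr1 and Nr3c2. Esr1 (oestrogen receptor α) stood at 176, 241 and 250 CPM in nonOIR and 134, 160 and 197 in OIR (lowest, median, highest), and only nonOIR replicate 1 lay inside the OIR range. Its log2 change was -0.50 ± 0.09 (SE; edgeR adjusted p = 0.00179). The CreERT2 recombinase of these mice holds an oestrogen receptor domain, and whether its reads were counted as Esr1 was not tested. Nr3c2, the mineralocorticoid receptor, which also binds glucocorticoids, fell from 5.22 ± 1.70 to 2.45 ± 0.865 CPM (SD, n = 8), by 1.09 on the log2 scale (edgeR adjusted p = 0.0155). Its call was lost without the low-count filter (edgeR adjusted p = 0.0545) and within each lane alone (edgeR adjusted p = 0.173 and 0.105), and that of Esr1 within lane 1 (edgeR adjusted p = 0.0801). Per kilobase, Nr3c1 at 30.5 CPM and Rxrb at 23.1 exceeded Esr1 at 17.0 in nonOIR. The testicular orphan receptors Nr2c1 and Nr2c2, Nr2f6 and Esrra, the remaining receptors with a mean above 10 CPM, did not pass (log2 differences of -0.06, -0.58, 0.00 and -0.04).

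Coactivators and corepressors carry receptor signals to chromatin. Of 22 tested, 2 fell and none rose, with a median log2 fold change of -0.24, beside 4.56% of all tested genes that fell. With lane as a covariate 5 fell and 2 rose, where 17.3% of all tested genes passed. The 2 that fell over all libraries were Lcor, a ligand-dependent corepressor (15.4 ± 2.76 to 9.82 ± 2.36 CPM; log2 -0.65, edgeR adjusted p = 0.0201), and Ddx5, an RNA helicase that acts as a coactivator (319 ± 19.0 to 245 ± 51.5 CPM; log2 -0.38, edgeR adjusted p = 0.0315; SD, n = 8). The call for Ddx5 was lost without OIR replicate 6, 7 or 8 or nonOIR replicate 5, 6 or 7 (edgeR adjusted p from 0.0533 to 0.0671). The difference of Ddx5 depended on lane (edgeR interaction adjusted p = 0.0305), at -0.15 in lane 1 and -0.77 in lane 2. Without the low-count filter neither passed (edgeR adjusted p = 0.0575 for Lcor and 0.0580 for Ddx5). Nrip1 (RIP140), which represses many ligand-bound receptors, had a log2 difference of -0.41 (edgeR adjusted p = 0.164), and passed with lane as a covariate (edgeR adjusted p = 0.00540). Ncoa3, a coactivator of the p160 family, was at 0.15 (edgeR adjusted p = 0.777).

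LXR target genes were among those that rose, while the LXR genes themselves did not pass. Of 16 tested targets 5 rose and none fell, while 6.39% of all tested genes rose. The median log2 fold change of the targets was 0.35, and 13 of 16 were positive, beside 5806 of 12496 tested genes. The list counts were 5 of 16 in lane 1 and 7 of 17 in lane 2, all higher, where 3.33% and 15.4% of tested genes passed. With lane as a covariate 6 of 16 rose and 1, Mertk, fell, beside 17.3% of tested genes that passed. Apoc1, a lipoprotein component, stood at 9.16, 13.5 and 17.3 CPM in nonOIR and at 30.3, 41.5 and 59.5 in OIR (lowest, median, highest), without overlap (log2 1.77, edgeR adjusted p = 1.93e-05). Lpl, which releases fatty acids from lipoproteins, rose without overlap from 137 ± 51.5 to 425 ± 61.1 CPM (SD, n = 8; log2 1.63, edgeR adjusted p = 0.000126). Its rise depended on lane (edgeR interaction adjusted p = 0.00209), at 1.24 in lane 1 and 2.59 in lane 2.

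Both cholesterol exporters rose. Abcg1 stood at 24.5, 36.5 and 74.0 CPM in nonOIR and at 82.0, 106 and 120 in OIR (lowest, median, highest), without overlap (log2 1.24 ± 0.18 (SE), edgeR adjusted p = 0.000435). Abca1 rose from 123 ± 41.9 to 268 ± 76.2 CPM (SD, n = 8; log2 1.12, edgeR adjusted p = 0.00172), with ranges that met between 149 and 190 CPM. Scd2, a fatty acid desaturase, rose from 78.8 ± 22.9 to 129 ± 26.9 CPM (log2 0.71, edgeR adjusted p = 0.0113), but did not pass in lane 1 alone (edgeR adjusted p = 0.208). Lpl, Apoc1 and Scd2 also have regulators other than LXR.

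The textbook LXR target Srebf1, the master factor of fatty acid synthesis, had nearly equal means, 38.0 ± 11.7 and 38.2 ± 8.56 CPM (SD, n = 8; log2 0.01 ± 0.19 (SE), edgeR adjusted p = 0.990). Srebf1, Scd2 and Fasn were chosen after their values were seen. Mertk, a receptor for the uptake of dying cells, was at -0.24 (edgeR adjusted p = 0.276) over all libraries and -0.25 with lane as a covariate, where it passed (edgeR adjusted p = 0.0433). Apoe ran from 913 to 10136 CPM in nonOIR and from 1869 to 19202 in OIR and did not pass over all libraries (log2 0.65 ± 0.57 (SE), edgeR adjusted p = 0.524). It passed within lane 1 (0.66, edgeR adjusted p = 0.0261), within lane 2 (0.63, edgeR adjusted p = 0.0382) and with lane as a covariate (edgeR adjusted p = 0.00139).

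The 250 bases before a RefSeq start of Abca1 and of Srebf1 are shown because each stretch holds a DR4 element, the paired site that LXR and RXR bind together, while Abca1 rose and Srebf1 did not pass. The search took GGTNA, 5 bases of any kind and a second GGTNA, on both strands; the match is in capitals, here on the opposite strand. For Abca1 the region is chr4:53159896-53160145 on the minus strand, and the match starts 67 bases before the start. For Srebf1 it is chr11:60210472-60210721 on the minus strand, before a start inside the gene, and the match starts 182 bases before that start. Both are from RefSeq on mm10.
Abca1: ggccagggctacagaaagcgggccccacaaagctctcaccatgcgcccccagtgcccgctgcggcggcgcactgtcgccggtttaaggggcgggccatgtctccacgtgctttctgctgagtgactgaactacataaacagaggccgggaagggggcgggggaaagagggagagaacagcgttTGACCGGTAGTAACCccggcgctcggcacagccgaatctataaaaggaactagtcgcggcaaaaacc
Srebf1: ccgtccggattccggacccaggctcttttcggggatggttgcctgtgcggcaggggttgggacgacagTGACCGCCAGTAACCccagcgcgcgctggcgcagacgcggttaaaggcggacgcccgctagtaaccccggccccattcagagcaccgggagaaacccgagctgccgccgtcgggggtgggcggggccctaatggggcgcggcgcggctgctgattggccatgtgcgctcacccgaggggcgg
Of all promoter windows 0.718% held a DR4 match. Among LXR targets 3 of 17 windows held it, those of Abca1, Srebf1 and Fasn, and none of the 17 member windows did. Fasn, fatty acid synthase, had a log2 difference of 0.46 (edgeR adjusted p = 0.407). Of these 3 genes with a DR4 in the window, Abca1 rose and the other two did not pass.

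PPAR target genes gave a similar count. Of 17 tested, 4 rose and none fell, with a median log2 fold change of 0.20 and 14 of 17 positive. Over all tested genes 6.39% rose, and 5806 of 12496 were positive. Fabp5, which carries fatty acids to PPARδ, stood at 4.37, 6.82 and 9.41 CPM in nonOIR and 14.7, 26.1 and 69.8 in OIR (lowest, median, highest), without overlap (log2 2.43 ± 0.34 (SE), edgeR adjusted p = 0.000299). Cd36, a fatty acid and oxidised lipoprotein receptor, rose from 6.74 ± 3.99 to 43.8 ± 35.5 CPM (log2 2.70, edgeR adjusted p = 0.00232), with a wide spread among OIR libraries (7.84 to 88.6). Ucp2, a mitochondrial carrier, and Plin2, a lipid droplet coat protein, rose without overlap, by log2 0.58 (edgeR adjusted p = 0.00124) and 0.76 (edgeR adjusted p = 0.00144). The rises of Ucp2 and Plin2 depended on lane, Ucp2 at 0.36 in lane 1 and 1.05 in lane 2 (edgeR interaction adjusted p = 0.0158) and Plin2 at 0.45 and 1.23 (edgeR interaction adjusted p = 0.0305).

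The enzymes of fatty acid oxidation on the PPAR list did not pass. Hadha went from 89.3 ± 22.3 to 103 ± 16.1 CPM and Ech1 from 141 ± 11.3 to 151 ± 17.4 (SD, n = 8), with log2 differences of 0.20 and 0.11 (edgeR adjusted p = 0.408 and 0.453). Within lanes, 4 of the 17 PPAR targets rose in lane 1 and 7 in lane 2, where 3.33% and 15.4% of tested genes passed. With lane as a covariate 7 of the 17 rose, beside 17.3% of tested genes that passed.

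Glucocorticoid target genes moved in both directions. Of 16 tested, 4 fell and 2 rose, with a median log2 fold change of -0.27, and 12 of 16 were negative. Over all tested genes 4.56% fell, 6.39% rose, and 5806 of 12496 were positive. Sgk1, a kinase induced by glucocorticoids and mineralocorticoids, stood at 1504, 1727 and 2115 CPM in nonOIR and 857, 1107 and 1445 in OIR (lowest, median, highest). The groups did not overlap (log2 -0.64 ± 0.10 (SE), edgeR adjusted p = 0.000597). Tsc22d3 (GILZ), an anti-inflammatory mediator of the hormone, fell from 232 ± 55.0 to 147 ± 33.4 CPM (SD, n = 8; log2 -0.65, edgeR adjusted p = 0.00798). It did not pass in lane 1 alone (edgeR adjusted p = 0.223).

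Cebpd and Errfi1, chosen after their values were seen, fell by 0.43 and 0.45 on the log2 scale (edgeR adjusted p = 0.0179 and 0.0212), and Errfi1 lost its call without OIR replicate 6 (edgeR adjusted p = 0.0539) and without the low-count filter (edgeR adjusted p = 0.0536). The genes that rose were the metallothioneins Mt1 and Mt2, which glucocorticoids and also metals and hypoxia induce. Mt1 went from 62.9 ± 9.80 to 122 ± 31.5 CPM (log2 0.96, edgeR adjusted p = 0.000467) and Mt2 from 1.58 ± 0.305 to 4.16 ± 1.72 (log2 1.39, edgeR adjusted p = 0.00457), each without overlap. The rise of Mt1 depended on lane, at 0.59 in lane 1 and 1.56 in lane 2 (edgeR interaction adjusted p = 0.0305). Fkbp5, an immunophilin known as a responsive glucocorticoid target and also chosen after its values were seen, was at -0.03 (edgeR adjusted p = 0.936). Within lane 1 the counts of this list were 1 higher (Mt1) and 1 lower (Sgk1) of 17 tested, and within lane 2 they were 2 and 4 of 15. Of all tested genes 3.33% and 15.4% passed in these lanes. Cebpd and Mt2 did not pass in lane 1 (edgeR adjusted p = 0.280 and 0.174), and Errfi1 passed in neither lane (edgeR adjusted p = 0.143 and 0.181). With lane as a covariate 2 of the list rose and 5 fell, beside 17.3% of tested genes that passed.

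The 250 bases before a RefSeq start inside Sgk1 are shown because they hold a match to the glucocorticoid response element, searched on both strands as GNACA, 3 bases of any kind and TGTNC (capitals), which begins 188 bases before that start. The stretch is chr10:21993640-21993889 on the plus strand of mm10, from RefSeq.
Sgk1: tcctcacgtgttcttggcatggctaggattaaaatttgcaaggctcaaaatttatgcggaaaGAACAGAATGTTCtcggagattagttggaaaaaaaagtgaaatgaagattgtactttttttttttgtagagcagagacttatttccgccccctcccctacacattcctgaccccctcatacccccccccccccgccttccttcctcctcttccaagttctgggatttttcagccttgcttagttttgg
Of all promoter windows 0.475% held such a match. Among glucocorticoid targets 2 of 24 windows did, those of Sgk1, which fell, and Mt1, which rose.

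Chaperones of the glucocorticoid receptor were measured as well. Of 10 tested, 1 rose and none fell, with a median log2 fold change of 0.21, beside 6.39% of all tested genes that rose. The gene that rose was St13 (Hip), an Hsp70 cochaperone, from 146 ± 10.4 to 181 ± 15.1 CPM (SD, n = 8; log2 0.31, edgeR adjusted p = 0.00816). Hsp90ab1, the constitutive Hsp90, and Hspa8, the constitutive Hsp70, did not pass over all libraries (log2 0.36 and 0.23, edgeR adjusted p = 0.0944 and 0.204). They did with lane as a covariate (edgeR adjusted p = 0.00540 and 0.0147), when 4 of the 10 chaperones rose, beside 17.3% of all tested genes that passed.

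Other surroundings of the receptors passed rarely. No retinoic acid target of 3 tested, no gene of ligand supply and removal of 9 tested and no clock gene of 17 tested passed edgeR's quasi-likelihood test. Unadjusted p was under 0.05 for 0, 5 and 5 of them, DESeq2 called 0, 2 and 1, and limma-voom 0, 1 and 1. The median log2 fold changes of the ligand and clock lists were -0.45 and -0.38, and 14 of 17 clock genes were negative, Nr1d2 among them. Over all tested genes the median was -0.03, and 5806 of 12496 were positive. Dhrs3, a retinaldehyde reductase induced by retinoic acid, was at -0.11 (edgeR adjusted p = 0.576). The clock genes Bhlhe41 and Tef were at -0.38 and -0.22 (edgeR adjusted p = 0.153 and 0.292). Rdh11, a retinol dehydrogenase, was at -0.25 (edgeR adjusted p = 0.0844).

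Nr4a1 is 1 of 14 tested immediate early genes, of which 3 rose and 2 fell, beside 6.39% and 4.56% of all tested genes. Ier3 (log2 1.34, edgeR adjusted p = 0.000170), Atf3 (1.14, edgeR adjusted p = 0.000435) and Egr1 (1.34, edgeR adjusted p = 0.00298) rose without overlap. Btg2 fell by 0.68 without overlap (edgeR adjusted p = 0.00209), and Jun, chosen after its values were seen, fell by 0.44 (edgeR adjusted p = 0.00809). Egr1 stood at 2.95, 10.6 and 18.4 CPM in nonOIR and 21.0, 26.0 and 37.3 in OIR (lowest, median, highest), without overlap.

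**Figure D4:**
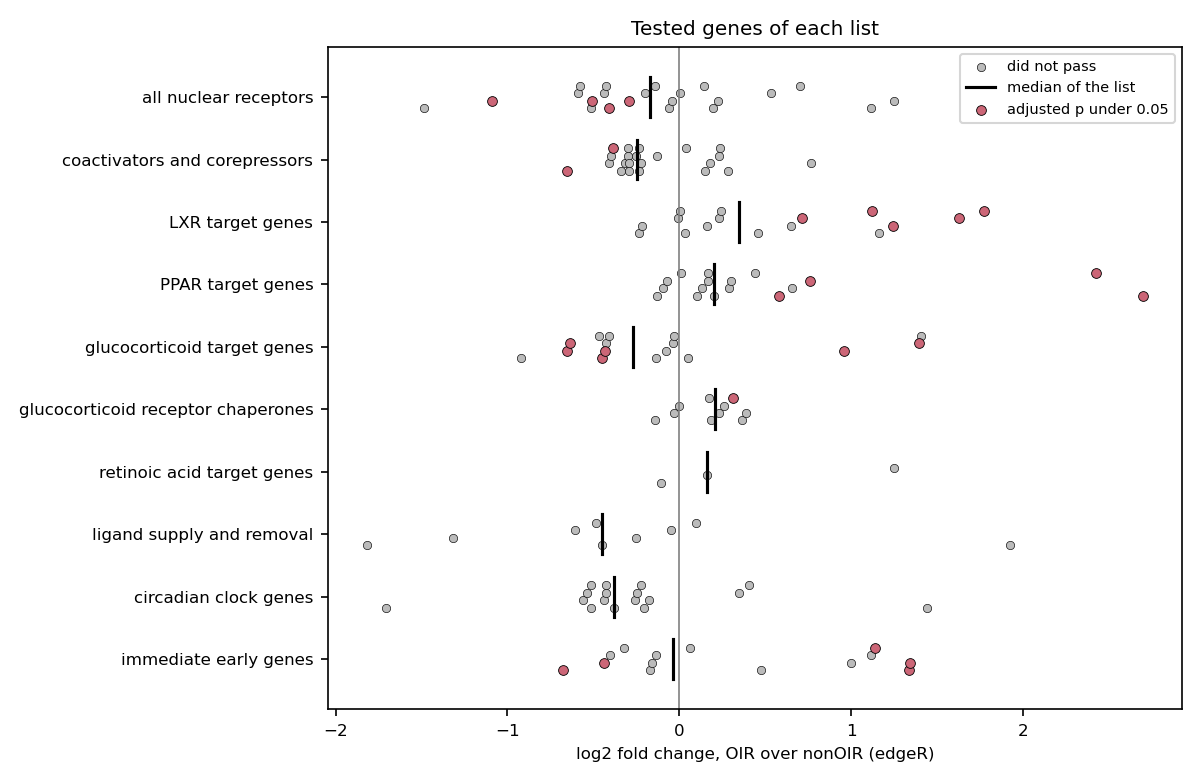
Log2 fold changes, OIR over nonOIR, of the tested genes of each receptor-related list; points are genes, red where edgeR's adjusted p was under 0.05 and grey elsewhere, and black lines are list medians. LXR and PPAR targets have 5 and 4 risen genes and no fallen one, while glucocorticoid targets have 2 and 4.

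Markers of the labelled cell type and of other cells were summed in each library. The 10 microglia markers summed to 65173 to 80702 CPM in nonOIR and 38159 to 63417 in OIR, without overlap, and 4 of 10 fell and none rose by edgeR's quasi-likelihood test. With lane as a covariate 9 of 10 fell, in lane 1 3 fell, and in lane 2 6 fell and 1 rose. Of the 10 proliferation genes 8 rose, and 10 with lane as a covariate. Over all tested genes 4.56% fell and 6.39% rose, and 17.3% passed with lane as a covariate, 3.33% in lane 1 and 15.4% in lane 2. Monocyte markers summed to 6.81 to 72.1 CPM in nonOIR and 14.8 to 116 in OIR, and Ly6c2 was at 0 throughout. Border macrophage markers summed to 29.5 to 244 and 15.5 to 495 CPM, rod and cone markers to 71.9 to 562 and 45.0 to 455, and inner retinal neuron markers to 48.5 to 79.1 and 30.5 to 57.1 CPM. Of 7 tested neuron markers 2 fell, among them Snap25 (log2 -1.31, edgeR adjusted p = 0.0388), which did not pass without the low-count filter (edgeR adjusted p = 0.0882). Its call was also lost in 11 of the 16 fits that each left out 1 library. In lanes 1 and 2 alone Snap25 was at -1.83 and -0.33 (edgeR adjusted p = 0.0508 and 0.680).

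Endothelial and pericyte markers summed to 20.8 to 42.2 CPM in nonOIR and 8.50 to 37.5 in OIR, and Müller glia and astrocyte markers, mostly Apoe, which microglia express too, to 1249 to 10511 and 2140 to 19529. Of these glial markers Glul, glutamine synthetase, fell by 0.33 on the log2 scale (edgeR adjusted p = 0.0164). Erythroid markers summed to 0 to 28.9 and 1.87 to 292 CPM (medians 1.11 and 98.2), and both tested ones rose, Hbb-bs by 4.57 on the log2 scale (edgeR adjusted p = 0.00701). Lymphocyte and granulocyte markers reached at most 0.803 and 0.360 CPM, with Cd3e, Cd3d, Nkg7, Ly6g and Elane among those at 0. Nr3c1, Rxrb and Esr1 fell beside the microglia and neuron markers. The risen LXR and PPAR targets rose beside the proliferation and erythroid genes. Medians of the monocyte sum (19.2 to 41.4 CPM) and the border macrophage sum (99.8 to 179 CPM) were higher too. F13a1 is on both of these lists, with medians of 13.8 CPM in nonOIR and 30.5 in OIR. Of 3 tested monocyte markers 2 were positive and 1, Ccr2, was negative (medians 5.02 and 3.76 CPM, log2 -0.06). The 9 tested border macrophage markers were all positive. No tested marker of either list passed over all libraries by edgeR's quasi-likelihood test. The border macrophage markers gave different counts in the lanes. None of 8 tested rose in lane 1 (median log2 fold change -0.15) and 6 of 9 in lane 2 (2.69), where 3.33% and 15.4% of tested genes passed. In edgeR's quasi-likelihood interaction test none of these markers passed for a difference between lanes, and 3 had an unadjusted p under 0.05. Lane 2 is also where the differences of Nr1h2, Rxra, Rxrb, Ppard, Nr1d2 and Esr1 were larger in size. The same held for Lpl, Abcg1, Abca1, Scd2, Fabp5, Cd36, Ucp2, Plin2, Mt1, Mt2, Sgk1 and Tsc22d3, among others. Nr3c1, Apoe, Errfi1 and Snap25 were among the genes whose differences were not larger there. The part of other cells and of proliferation in the receptor results was not tested, and lane was examined only in the fits given above.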

How the data were processed

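RNA-seq gene counts of 16 libraries (8 OIR, 8 nonOIR) were analysed. Per the labels' protocols, libraries were made from 750 pg of total RNA (SMARTer v4, 12 cycles; Nextera XT, 150 pg of cDNA) and read as single reads of 50 cycles. Strand is not marked, so overlapping genes on opposite strands cannot be told apart. There are no molecular identifiers, and the floor of 3 reads covers counting error alone.

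The gene counts deposited by the authors are whole numbers. Tools named in the submitters' processing notes are STAR 2.6.0b-1, featureCounts 1.6.2, FastQC 0.72 and DESeq2 2.11.40.2, with build mm10; roles and the annotation are not given in the sources used here. Besides counts, the authors deposited normalized signal columns, a base mean signal, log2 fold changes with standard errors, a Wald score, and p-values with adjusted p-values, which were used only where the text names the authors' deposited table. 

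After filterByExpr and TMM scaling, counts entered edgeR 4.0.16 under R 4.3.3 (robust glmQLFit, two-sided glmQLFTest; biological coefficient of variation 40.3%), and p-values were adjusted by Benjamini-Hochberg over 12496 genes, threshold 0.05. Exon lengths and coordinates are from GENCODE M21, and promoter sequences are RefSeq's on GRCm38.p6 (mm10): 9 of the 10 receptors had a window, and Nr3c1 did not. The receptors and gene lists were chosen with earlier results of these data known. The genes named are all 10 receptors, other nuclear receptors that passed or had a mean of at least 10 CPM, up to 4 called genes with the lowest p and 2 uncalled genes with the highest level from each list, up to 2 genes of each cell type list, and the 2 genes closest to each called receptor; those named with values outside this rule are marked, and a few genes it would name are not reported here. Alternatives covered scaling, filter, lane, replicate number, DESeq2 1.42.0, limma-voom (limma 3.58.1) and omission of libraries. The test was run on simulated counts of 12496 genes for the comparison of OIR with nonOIR: it recovered 17 of 67 planted changes of 1.5-fold, 37 of 67 at 2-fold, and 59 of 66 at 4-fold.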

Additional observations from a re-analysis of the deposited data

Results flagged for a closer look

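Among the named genes, a group's highest or lowest library was far from the other 7 in 11 of 170 combinations of gene and group; chance gives about 1 in 20. Of these, 2 were receptors of the main set. Nr1h3 stood at 2.02 CPM in nonOIR replicate 2, and the next library was at 0.761. Ppard stood at 9.24 CPM in nonOIR replicate 7, with the next at 6.15. Esr1 was low in nonOIR replicate 1, at 176 CPM, with the next at 233.

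OIR replicate 1, which stood apart on the third component, was the highest of its group for Ccr2 (14.0 CPM, next 6.86), Errfi1 (44.5, next 35.4) and Jun (139, next 115). Atf3 was highest in OIR replicate 8 (120 CPM, next 75.3), Cul2 in OIR replicate 2 (83.0, next 64.0) and Ms4a1 in OIR replicate 6 (0.360, next 0.0852). F13a1 was highest in nonOIR replicate 3 (66.0 CPM, next 26.2) and Hbb-bs in nonOIR replicate 8 (20.3, next 2.65).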

How the results depend on the processing

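The count of changed genes, 1368, moved to 2159 with lane as a covariate and to 417 among lane 1 libraries, and ran from 935 to 1556 when each library was left out. The 2 receptors that passed became 1 with library-size scaling, 1 without the low-count filter, 0 in lane 1, 1 in lane 2 (Nr1h2, higher in OIR), 1 without OIR replicate 1 and nonOIR replicate 8 (chosen after seeing the data; Nr3c1 passed, and Rxrb had an edgeR adjusted p of 0.0872), and 1 to 2 when each library was left out; the cause was not tested, beyond the fewer libraries in the single-lane and omission fits. With upper-quartile or RLE scaling, DESeq2 and limma-voom Nr3c1 and Rxrb both passed. No receptor passed the test of a difference between lanes under any setting tried. With 3 libraries of each group in lane 2, that test cannot show that the lanes were alike. A fit with the replicate number as a block called 1679 genes (13.4%) and 3 receptors, adding Nr1d2 (edgeR adjusted p = 0.0488). The numbers did not pair the libraries: same-numbered deviations correlated at 0.0118 to 0.295, 4 of 8 pairs over 0.1, and 2 OIR libraries correlated best with their own number. Of 2159 values of single genes under alternatives, 56 changed sign, none of a gene that passed in either fit. They were Nr1h3 (-0.51 in lane 2), Ccr2 (0.40 in lane 1), Dhrs3 (0.066 in lane 2), Esrra (0.028 with library-size scaling, 0.00032 in lane 1, 0.015 without the 2 libraries), F13a1 (-0.12 in lane 1), Glud1 (0.041 with library-size scaling, 0.011 in lane 2), Ms4a7 (-0.18 in lane 1, -0.034 by limma-voom), Ncoa3 (-0.010 without the 2 libraries), Nr2c1 (0.028 in lane 1), Nr2f6 (-0.022 with upper-quartile scaling, -0.073 in lane 1), Rbpms (0.13 in lane 1), Srebf1 (-0.016 with upper-quartile scaling, -0.049 in lane 1, -0.11 without the 2 libraries), Tgm2 (-0.60 in lane 1) and Zfp36l2 (0.012 in lane 2). When each library was left out, signs changed within -0.23 to 0.047 for Nr2c1, -0.042 to 0.083 for Nr2f6, -0.12 to 0.025 for Esrra, -0.14 to 0.00057 for Zfp36l2, -0.037 to 0.35 for Tgm2, -0.46 to 0.043 for Ccr2, -0.044 to 0.098 for Cul2, -0.056 to 0.0080 for Glud1 and -0.077 to 0.090 for Srebf1. Pparg, Rara, Nr1h3 and Nr4a1 had 58 to 385 reads per group of 8 libraries, and whether depth or the spread between libraries sets their results was not tested.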
